A study of Mus musculus with 19 samples.

Results

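The data set out here are a comparison of elastase-infused with saline-infused mouse aorta in a cohort of 7 arrays, 4 from elastase-treated (PPE) and 3 from saline-treated (sham) female mice, of 19 arrays in the series. The arrays were chosen by the sex and treatment in their labels, and no measured value was used to choose them. Each gene was represented by its brightest probe set with a single symbol, which left 30062 genes, and the comparison was described over all of them.

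Porcine pancreatic elastase is used to digest the elastic fibres of the mouse infrarenal aorta, which then widens over the following days as a model of abdominal aortic aneurysm. All mice were C57BL/6J and 10 weeks old at the operation. The infrarenal aorta was filled for 5 min at 120 mmHg with saline, or with saline holding type I porcine pancreatic elastase at 2.5 U/mL, and was taken 7 days later. Each array holds 100 ng of RNA from the aorta of 1 mouse, flushed, freed from fat and connective tissue and frozen. No mutant allele or second treatment is given for either group, and the labels give no operation batch, scan date or time of day. A sham aorta was cannulated and pressurised too, so the contrast is elastase against saline infusion and not against an untouched vessel.

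The wall of the infrarenal aorta is built mainly from smooth muscle cells between elastic lamellae, with endothelium inside and an adventitia of fibroblasts, nerves and fat outside. Contractile smooth muscle cells hold large amounts of the actin, myosin and calponin proteins that set vessel tone, and they make the elastin, collagen and laminin of the wall. Leukocytes that enter an injured wall bring their own transcripts, among them the calprotectin genes of neutrophils and the antigen receptors of lymphocytes, and interferons switch on a shared set of antiviral genes in most cell types. The arrays measured whole tissue, so fewer cells of a type and less RNA per cell cannot be told apart.

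Smooth muscle markers were among the brightest transcripts of every array, as the label of the tissue has it: Acta2, the smooth muscle actin, had log2 values of 18.31, 18.69 and 18.38 in the sham arrays and 17.47, 17.58, 17.53 and 17.90 in the PPE arrays. Over all 30062 genes the array medians lay between 6.73 and 6.88 on the log2 scale. The first principal component held 48.9% of the variance and separated the groups, with the sham arrays at -38, -40.1 and -27.4 and the PPE arrays at 37.9, 29.7, 31 and 6.87. PPE 4 was the elastase array nearest to the sham arrays.

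A gene was called when its limma p-value, adjusted by Benjamini and Hochberg over all 30062 genes, was below 0.05. By this rule 1333 genes rose, which is 4.43% of those tested, and 635 fell, which is 2.11%. Every called gene had all 4 PPE arrays on one side of all 3 sham arrays. Such a separation was seen in 11% of all genes towards higher and in 8.86% towards lower values. At least a 2-fold change was reached by 501 of the called rises and 114 of the called falls, and a 4-fold change by 50 and 8. Rises made up 67.7% of all calls, and 51% after quantile normalization of the 7 arrays and 56.2% after median centring, while the median difference over all genes was -0.02. Leaving out 1 array at a time gave between 359 and 1254 rises and between 141 and 732 falls. The smallest counts came without sham 2. Without sham 1 there were 545 rises and 306 falls and without sham 3 there were 670 and 253; falls numbered 344, 399 and 310 without PPE 1, PPE 2 and PPE 3, and rises 885 without PPE 3. In all, 333 rises and 100 falls passed with all arrays and in all 7 of these fits.

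**Figure D1:**
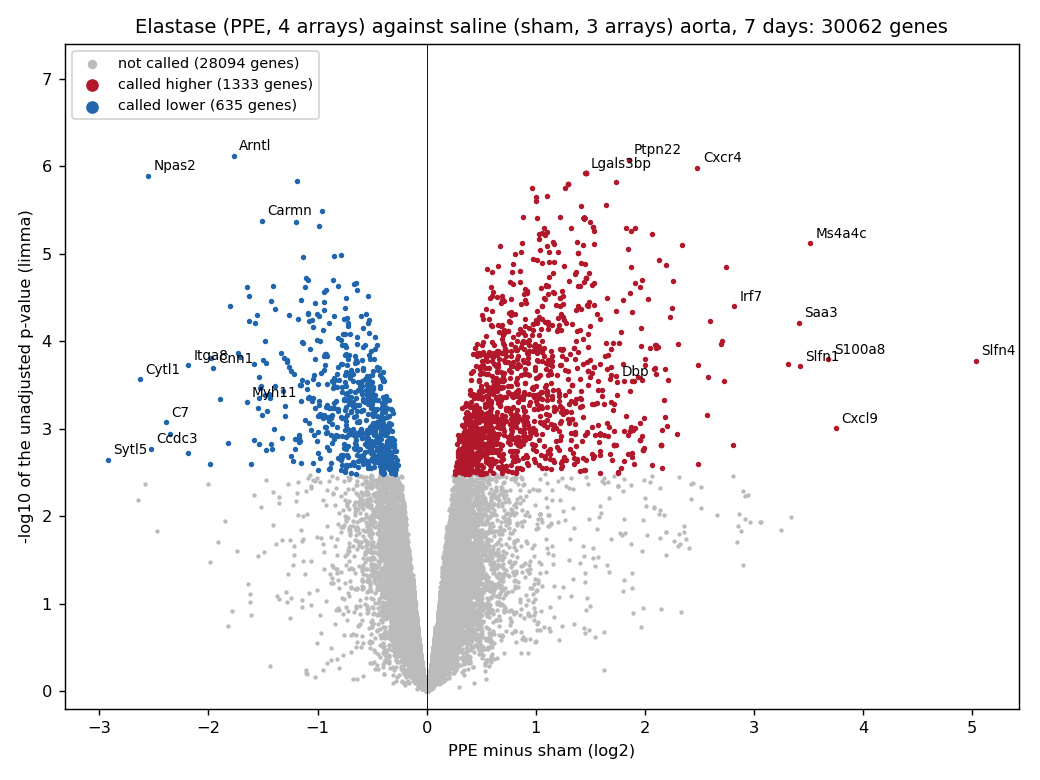
Each point is a gene, with PPE minus sham on the log2 scale on the horizontal axis and the -log10 of the unadjusted limma p-value on the vertical axis; 1333 genes called higher are red, 635 called lower are blue and the rest are grey. With predicted, small RNA and antigen receptor segment genes skipped, the called rises reach further than the falls, to 5.03 for Slfn4 against -2.92 for Sytl5.

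With predicted, small RNA and antigen receptor segment genes skipped, the 7 largest called rises were those of Slfn4, Cxcl9, S100a8, Ms4a4c, Slfn1, Saa3 and S100a9. Slfn4, a Schlafen gene known from myeloid cells under interferon, read 8.31, 7.91 and 7.80 in the sham arrays and 14.49, 11.51, 14.20 and 11.96 in the PPE arrays. Its difference of 5.03 (SE 0.74, adjusted p = 0.0107) is a 32.7-fold rise, and the groups did not overlap. Cxcl9, a chemokine that draws activated T cells and is induced by interferon gamma, read 10.68, 10.20 and 9.04 against 15.16, 13.12, 14.47 and 12.15, a rise of 3.75 (SE 0.73, adjusted p = 0.025). S100a8, a subunit of the neutrophil protein calprotectin, read 7.56, 5.49 and 6.71 against 11.11, 9.81, 10.62 and 9.54, and rose by 3.68 (SE 0.54, adjusted p = 0.0107). Its partner S100a9 rose by 3.31 (SE 0.49, adjusted p = 0.0112). In Slfn4, Cxcl9, S100a8 and S100a9 PPE 1 and PPE 3 were the highest arrays, and PPE 2 and PPE 4 the lowest of the elastase group.

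In the falls the same gene types were skipped. Among the 7 largest called falls of the rest were Npas2, a clock gene, and Pdlim3, a contractile gene, which are described with their lists, and the following 5. Sytl5, a synaptotagmin-like protein of vesicle trafficking, read 11.46, 11.89 and 10.74 in the sham arrays and 7.98, 7.45, 8.06 and 10.30 in the PPE arrays, and fell by 2.92 on the log2 scale (SE 0.65, adjusted p = 0.039). Cytl1, a small secreted protein, read 12.40, 13.52 and 13.27 against 9.62, 10.53, 10.25 and 11.34 and fell by 2.63 (SE 0.41, adjusted p = 0.0134). Ccdc3, a secreted protein made in the vessel wall and in fat, fell by 2.53 (SE 0.54, adjusted p = 0.0329). The complement component gene C7 read 13.77, 14.18 and 13.71 against 10.50, 11.50, 11.30 and 12.70, a fall of 2.39 (SE 0.45, adjusted p = 0.0229). Itga8, the integrin alpha chain of mesenchymal cells, read 15.52, 16.18 and 16.05 against 13.42, 13.45, 13.38 and 14.64, a fall of 2.19 (SE 0.33, adjusted p = 0.0113). PPE 4 was the elastase array nearest to sham in each of these 5 genes. The same array was nearest to sham in 70.1% of the 635 called falls and in 51.7% of the 1333 called rises. Of these 7 largest falls only that of Npas2 passed in every fit that left out 1 array.

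**Figure D2:**
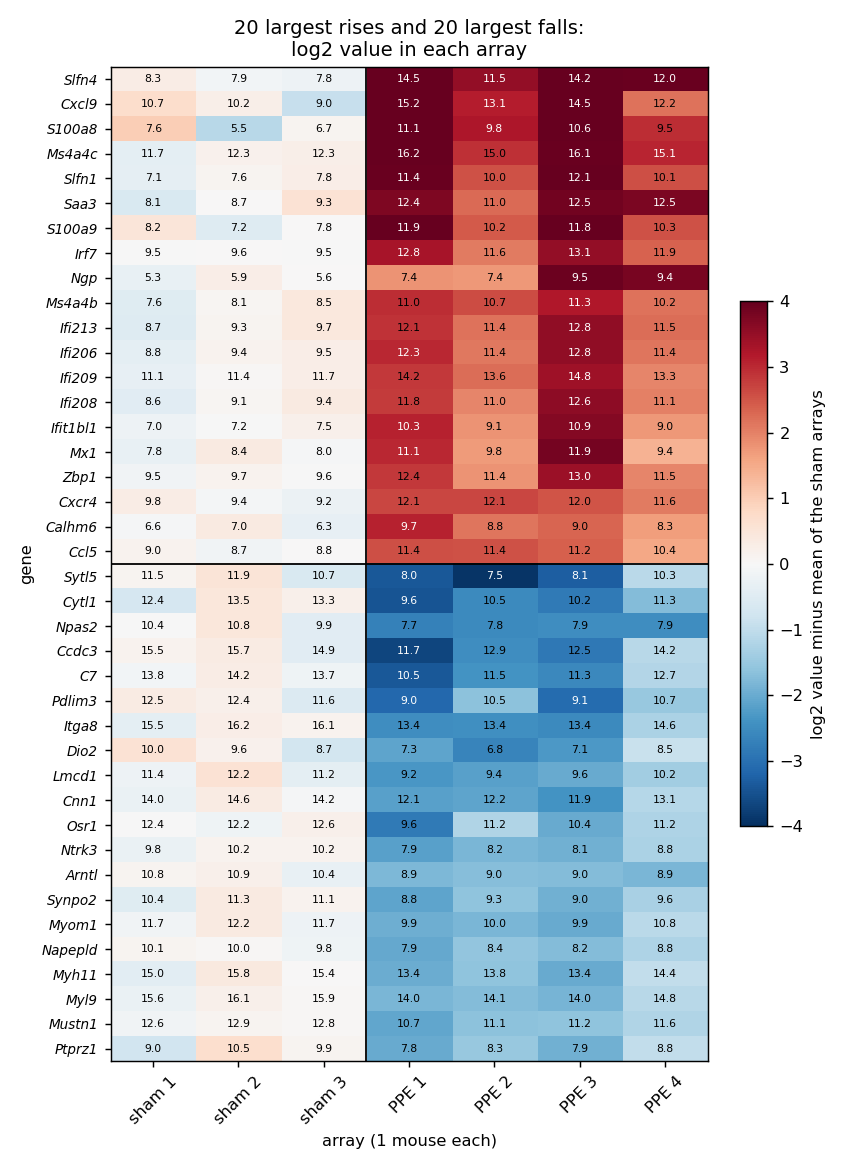
Rows are the 20 largest called rises and the 20 largest called falls among genes with a name; columns are the 7 arrays, the number in each cell is the log2 value, and the colour is that value minus the mean of the 3 sham arrays, with the scale ending at 4 in both directions. All 4 PPE arrays lie above the sham arrays in the upper 20 rows and below them in the lower 20, and PPE 4 is the palest elastase column for most falls.

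Circadian clock genes moved in both directions with little spread inside the elastase group. The clock is a feedback loop in which Arntl (BMAL1) pairs with Clock or its relative Npas2 to switch on Per, Cry, Nr1d and Dbp genes, whose products then act back on the loop. Npas2 read 10.39, 10.84 and 9.95 in the sham arrays and 7.70, 7.85, 7.90 and 7.92 in the PPE arrays, a fall of 2.55 (SE 0.19, adjusted p = 0.00204). Arntl read 10.84, 10.92 and 10.42 against 8.92, 9.02, 8.99 and 8.89, a fall of 1.77 (SE 0.12, adjusted p = 0.00204), with the smallest p-value of all genes. The elastase values of each gene lay close together and below every sham value.

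On the activating side Clock itself fell by 0.74 (SE 0.13, adjusted p = 0.0189) and Rora, a nuclear receptor that drives Arntl, fell by 0.63 (SE 0.15, adjusted p = 0.0439). Dbp, an output gene that Arntl switches on, read 8.98, 8.31 and 9.42 against 10.27, 10.46, 10.84 and 11.01 and rose by 1.74 (SE 0.28, adjusted p = 0.0137). Nr1d2 (REV-ERB beta), a repressor of Arntl, rose by 0.96 (SE 0.13, adjusted p = 0.00813), Per3 by 0.94 (SE 0.13, adjusted p = 0.00895) and Tef, a relative of Dbp, by 0.45 (SE 0.10, adjusted p = 0.0359). Of 21 clock genes measured, 4 rose and 4 fell, and their median was 0.10. Cry1 differed by 0.01, Per2 by 0.10 and Nr1d1 by 0.26, and their groups overlapped. Without sham 1 the list had 2 rises and 2 falls, without sham 2 or without PPE 3 it had 3 and 2, and without both sham 1 and PPE 2 it had 0 and 2. Clock genes change through the day in every tissue, and the hour at which each aorta was taken is not in the labels, so its part in these differences was not tested.

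**Figure D3:**
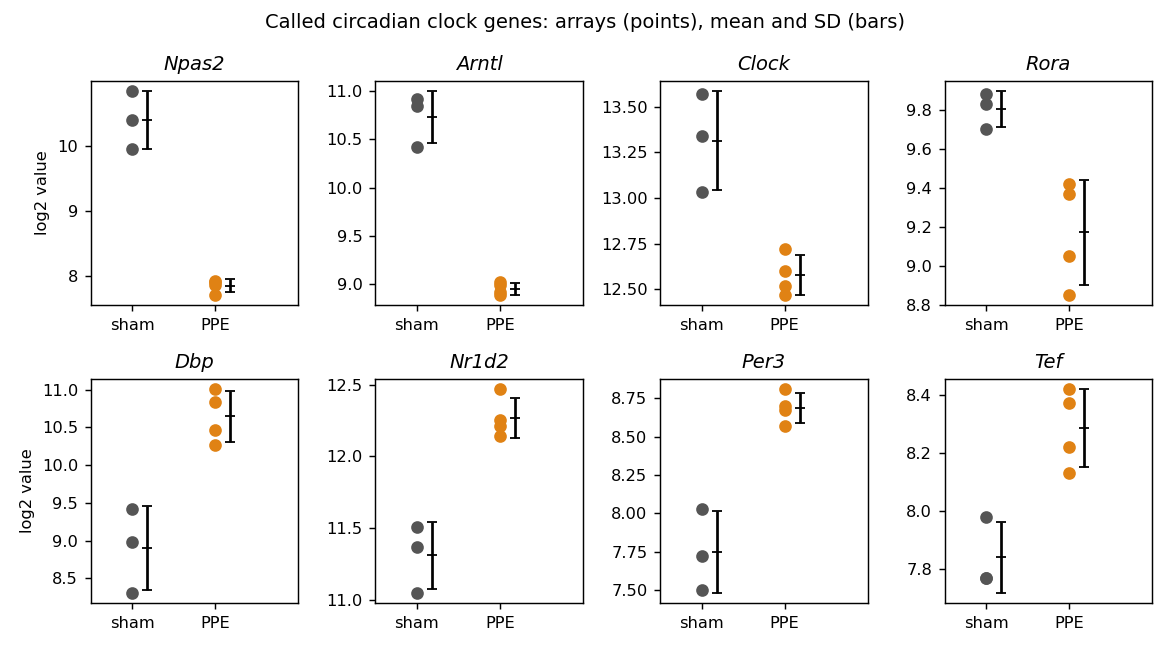
Log2 value of the 8 called clock genes in each array, grey for the 3 sham and orange for the 4 PPE arrays, with the mean and SD beside them; each panel has its own vertical axis. The upper row fell and the lower row rose, and the elastase values of Npas2 and Arntl lie close together.

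Interferon-stimulated genes rose as a group. Of 28 measured, 20 rose, none fell and the median was 1.83, beside -0.02 over all genes, of which 4.43% rose. Irf7, the transcription factor that amplifies type I interferon, read 9.54, 9.56 and 9.54 in the sham arrays and 12.84, 11.64, 13.06 and 11.92 in the PPE arrays, a rise of 2.82 (SE 0.34, adjusted p = 0.00589). Zbp1, a sensor of nucleic acids that can start cell death, rose by 2.49 (SE 0.37, adjusted p = 0.0113). Mx1, whose annotation type is transcribed pseudogene, also rose by 2.49 (SE 0.56, adjusted p = 0.0415). Ifit1 differed by 2.14 and Isg15 by 1.11, but their adjusted p-values were 0.0627 and 0.096. PPE 3 had the highest mean over the 28 genes, 12.06, followed by 11.55 in PPE 1, 10.72 in PPE 2 and 10.66 in PPE 4, against 9.30 to 9.58 in the sham arrays. Without sham 2 only 3 of the 28 passed, without sham 1 there were 7 and without sham 3 there were 8, while the median over the leave-one-out fits stayed between 1.57 and 2.02.

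Genes were also grouped into families by symbol. Of 355 families with at least 8 measured genes, 17 had 30% or more of their members called and were picked for that share, so their counts are a description; over all genes 4.43% rose and 2.11% fell. These were Slfn (7 of 9 rose), Klra (6 of 8), Ifi (9 of 13), Parp (7 of 11), Gimap (5 of 8), Tlr (7 of 12), Mcm (5 of 9), Oas (5 of 10), Rap (4 of 9), Dock (4 of 10), Tnfaip (3 of 8), Irf (4 of 11), Ms (7 of 20), Dennd (5 of 15), Xlr (5 of 15) and Pik (5 of 16). None of these families had a called fall except Dock, with 1. The other family was Itga, with 5 of 11 genes lower and 1 higher. Members of Slfn, Ifi, Oas, Klra and Xlr4 are close copies, and probes may pick up more than 1 of them, so single members are less certain than the family.

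Some neighbouring genes rose together. Rows of at least 4 called neighbours are described without a test, where 4.43% of all genes rose. Many of these rows hold related members of 1 gene family. On chromosome 1 (chr1:173349547-173913087, GRCm38.p6) 10 genes in a row rose, with a median of 1.85; they run from Aim2, a sensor of cytosolic DNA, through the Ifi200 genes to Ifi211. Within this row Ifi213 rose by 2.71 (SE 0.37, adjusted p = 0.00913), Ifi206 by 2.70 (SE 0.37, adjusted p = 0.00928) and Ifi209 by 2.60 (SE 0.33, adjusted p = 0.00705). On chromosome 19 (chr19:11375488-11530403) 7 genes of the Ms4a cluster rose in a row with a median of 2.25. Ms4a4c, a membrane protein gene of leukocytes, read 11.70, 12.26 and 12.32 against 16.22, 15.01, 16.05 and 15.13 there, a rise of 3.51 (SE 0.33, adjusted p = 0.0028), and Ms4a4b rose by 2.74 (SE 0.28, adjusted p = 0.00384). Other rows were the Slfn genes of chromosome 11 (4 genes, median 2.68), Trim12c with Trim30b, Trim30c and Trim30a on chromosome 7 (4 genes, median 1.98), the natural killer receptor genes from Klrd1 to Klrc1 on chromosome 6 (5 genes, median 1.69), the Gbp genes of chromosome 5 (4 genes, median 1.61) and a row of chromosome 1 with Cd244a, Ly9, Slamf7, Mir7683 and Cd48 (5 genes, median 1.31).

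Genes of antigen presentation rose. Of 16 measured genes for peptide loading and the immunoproteasome, 15 rose, and the median was 0.99. H2-K1, a class I heavy chain, read 14.10, 14.30 and 14.06 against 15.72, 15.40, 15.51 and 15.27, a rise of 1.32 (SE 0.12, adjusted p = 0.00226), and the peptide transporter gene Tap1 rose by 1.69 (SE 0.24, adjusted p = 0.00966). The immunoproteasome subunits Psmb8, Psmb9 and Psmb10 rose by 1.01, 1.02 and 0.97. Among 24 genes of the constitutive proteasome 1 rose, Psma5 by 0.43, near the 4.43% of all genes, and the median was 0.06. Whether the 2 lists differ was not tested. Class II genes also rose, H2-Eb1 by 1.14 (SE 0.18, adjusted p = 0.0125) and H2-Aa by 0.86 (SE 0.15, adjusted p = 0.0166). Left out 1 array at a time, between 3 and 14 of the 16 loading genes passed, with the fewest without sham 2.

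**Figure D4:**
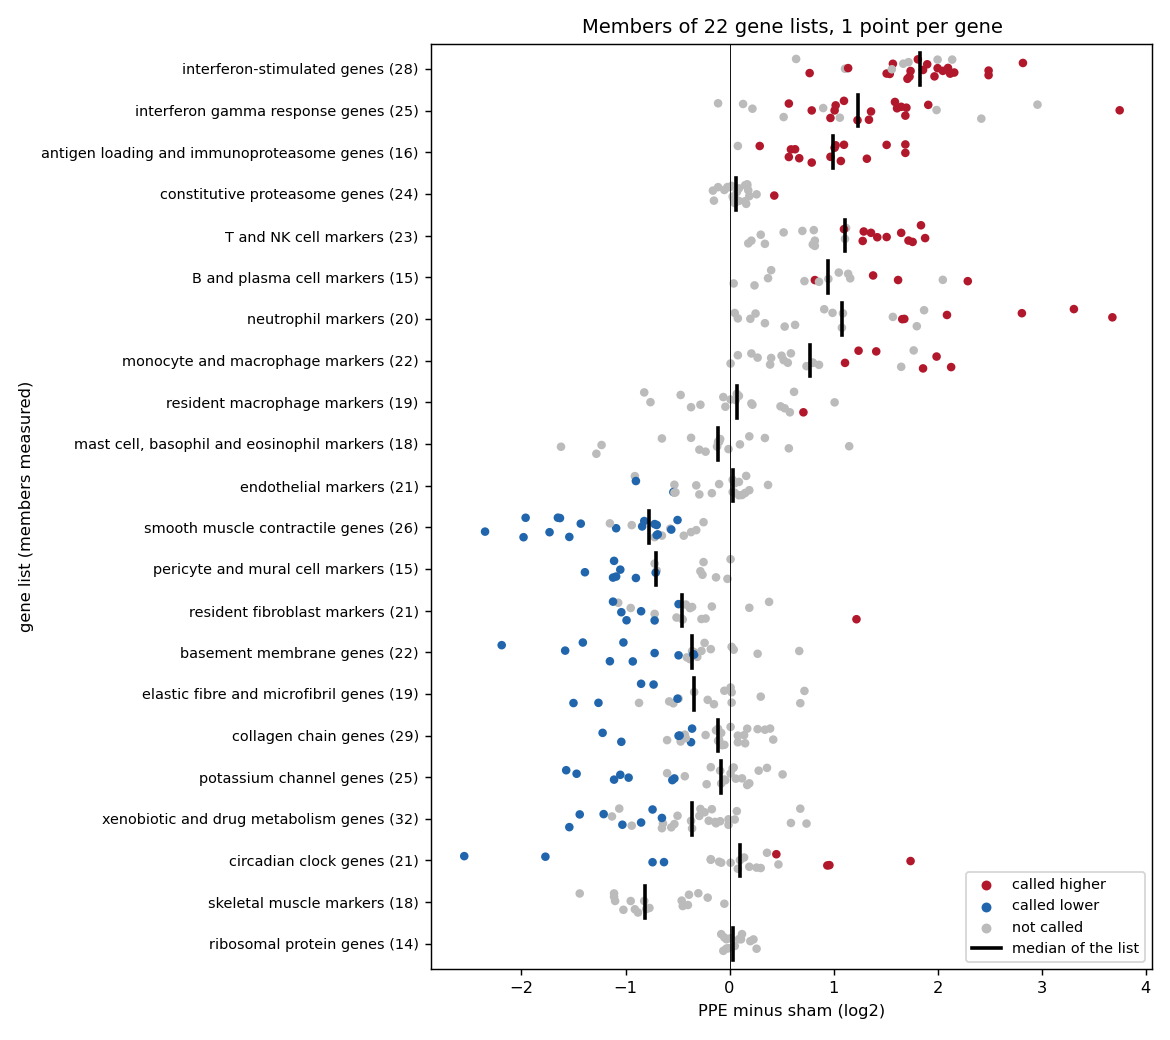
Each row is a gene list with the number of measured members; each point is a gene placed by PPE minus sham on the log2 scale, red if called higher, blue if called lower and grey if not called, and the black bar is the list's median. Interferon and lymphocyte lists lie to the right, and contractile, mural and basement membrane lists to the left; the constitutive proteasome and ribosomal protein lists lie near 0.

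Leukocyte markers of several kinds rose, beside 4.43% of all genes. Of 19 dendritic cell markers 11 rose, with a median of 0.73, and 5 to 10 in the leave-one-out fits, the fewest without sham 2. Of 23 T and NK cell markers 11 rose, with a median of 1.11. Cd4, the coreceptor of helper T cells, read 8.64, 7.97 and 8.34 against 9.69, 10.41, 10.88 and 9.82, a rise of 1.88 (SE 0.30, adjusted p = 0.0136). Klrk1, the activating receptor NKG2D, rose by 1.84 (SE 0.18, adjusted p = 0.00302), and Il2rb, a chain of the interleukin 2 receptor, by 1.91 (SE 0.21, adjusted p = 0.00477). Of 20 neutrophil markers 6 rose, with a median of 1.08, and Ly6g differed by 0.05. Ngp, a granule protein of immature neutrophils, read 5.34, 5.89 and 5.64 against 7.43, 7.37, 9.53 and 9.42, a rise of 2.81 (SE 0.59, adjusted p = 0.0311), with PPE 3 and PPE 4 far above PPE 1 and PPE 2. Its call was lost when any 1 of the sham arrays, PPE 3 or PPE 4 was left out. Leaving out each array in turn left 3 to 12 T and NK and 1 to 8 neutrophil markers, with the fewest in each list without sham 2.

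Of 22 monocyte and macrophage markers 6 rose, led by Fcgr4, a low-affinity receptor for antibody, by 2.13 (SE 0.21, adjusted p = 0.00355), Plac8 by 1.99 (SE 0.37, adjusted p = 0.0216) and Fcgr1 by 1.86 (SE 0.21, adjusted p = 0.00525). The list had 3 rises without sham 2 and 4 without sham 1 or sham 3. Among 19 markers of resident macrophages 1 rose, the complement gene C1qa, by 0.71 (SE 0.11, adjusted p = 0.0123), and the median was 0.07. That count is near the 4.43% of all genes that rose. Of 18 mast cell, basophil and eosinophil markers none passed limma's threshold, and their median was -0.11. Whether the resident and recruited lists differ was not tested.

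B cell transcripts rose with a wide spread between mice. Ighm, the heavy chain of IgM, read 10.31, 10.43 and 11.75 in the sham arrays and 12.43, 13.91, 13.46 and 12.69 in the PPE arrays, a rise of 2.29 (SE 0.46, adjusted p = 0.0264). Jchain, which joins IgM and IgA into polymers, rose by 1.62 (SE 0.32, adjusted p = 0.0264). Of 15 B and plasma cell markers 4 rose, beside 4.43% of all genes, with a median of 0.95. None of the 15 passed without sham 1 or without sham 2. The mean over 189 immunoglobulin V segments with distinct values was 8.48 in PPE 2, 7.82 in PPE 3, 7.12 in PPE 1 and 7.07 in PPE 4, against 6.37 to 6.95 in the sham arrays. In PPE 2 alone 63 of these segments stood more than 1 log2 unit above every other array.

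Chemokine and cytokine genes rose in part, where 4.43% of all genes rose and 2.11% fell. Of 31 chemokine genes 8 rose and 1 fell, and of 44 cytokine and receptor genes 14 rose. Ccl5 rose by 2.26 (SE 0.24, adjusted p = 0.00468) and Ccl7, which draws monocytes, by 2.16 (SE 0.42, adjusted p = 0.0257). Cxcr4 read 9.77, 9.39 and 9.24 against 12.13, 12.13, 11.98 and 11.55, a rise of 2.48 (SE 0.18, adjusted p = 0.00204), and its ligand gene Cxcl12 rose by 1.37 (SE 0.24, adjusted p = 0.0169). Receptor and ligand were both higher in every PPE array. Il1rn, the natural antagonist of interleukin 1, rose by 2.17 (SE 0.37, adjusted p = 0.0171), while Il1b read 11.44, 9.95 and 10.53 against 14.94, 12.55, 14.02 and 12.27 and differed by 2.81 with an adjusted p of 0.0515. Il6 was high in PPE 3 alone, at 11.13, and the groups overlapped. Leave-one-out fits gave 1 to 11 chemokine rises and 6 to 16 cytokine and receptor rises.

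Some sensors of microbes and of cell damage rose, beside 4.43% of all genes. Of 25 toll-like and pattern receptor genes 11 rose, with a median of 0.66: Tlr1 rose by 1.78 (SE 0.23, adjusted p = 0.0078) and Tlr9 by 1.53 (SE 0.27, adjusted p = 0.0182), while Tlr4, the receptor for endotoxin, differed by 0.18 and overlapped. Of 22 inflammasome and cell death genes 13 rose, with a median of 0.79. Mefv (pyrin) rose by 1.58 (SE 0.33, adjusted p = 0.0296), Aim2 by 1.28 (SE 0.19, adjusted p = 0.0106), and Naip5, which senses bacterial flagellin, by 1.00 (SE 0.08, adjusted p = 0.00204). The 4 neighbouring Naip genes of chromosome 13 all rose, with a median of 0.92. Without sham 2 each list had 2 calls, and the largest counts of the leave-one-out fits were 10 and 14.

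Among genes on none of the 64 lists, 1155 rose and 502 fell. Beside the Slfn, Ms4a and Ifi200 genes, Saa3, an acute-phase protein made outside the liver, read 8.09, 8.71 and 9.27 against 12.43, 10.97, 12.54 and 12.46 and rose by 3.41 (SE 0.43, adjusted p = 0.0071). Calhm6, a channel protein gene of activated macrophages, rose by 2.30 (SE 0.32, adjusted p = 0.00928), Klra2 by 2.21 (SE 0.35, adjusted p = 0.0136) and Cd69, an early activation marker of lymphocytes, by 2.20 (SE 0.42, adjusted p = 0.0243). The smallest p-values beside those of Arntl and Cxcr4 belonged to Ptpn22, a phosphatase that restrains antigen receptor signals, and to Lgals3bp, a secreted galectin-binding protein. Ptpn22 read 8.92, 9.16 and 9.34 in the sham arrays and from 10.76 to 11.18 in the PPE arrays, a rise of 1.85 (SE 0.13, adjusted p = 0.00204), and Lgals3bp rose by 1.45 (SE 0.11, adjusted p = 0.00204). The elastase arrays lay close together in both, unlike in the interferon genes.

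Of the 502 off-list falls, some of the largest of those not yet described are given here, with the same gene types skipped. Myom1, a sarcomere cross-linker, fell by 1.71 (SE 0.25, adjusted p = 0.0103), Napepld, an enzyme that makes lipid amides, by 1.65 (SE 0.18, adjusted p = 0.00481), and Mustn1, a small protein of muscle and cartilage, by 1.63 (SE 0.19, adjusted p = 0.00542). Ptprz1, a receptor phosphatase better known from glia, fell by 1.61 (SE 0.36, adjusted p = 0.0414), and Gabra3, a GABA receptor subunit, read 12.11, 12.49 and 12.99 against 10.94, 10.80, 11.04 and 11.10, a fall of 1.56 (SE 0.19, adjusted p = 0.0066). Ppp1r14a (CPI-17), which holds myosin phosphatase in check in smooth muscle, fell by 1.55 (SE 0.28, adjusted p = 0.019). Efhd1, Lims2, Map3k7cl and Cped1 fell by 1.58, 1.51, 1.48 and 1.48.

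Contractile smooth muscle genes fell as a group. Of 26 measured, 17 fell, beside 2.11% of all genes, and none rose, and the median was -0.77. Pdlim3, a partner of alpha-actinin, read 12.51, 12.37 and 11.64 against 9.02, 10.53, 9.08 and 10.65, a fall of 2.35 (SE 0.47, adjusted p = 0.0263). Lmcd1 fell by 1.98 (SE 0.29, adjusted p = 0.0105), and the calponin gene Cnn1, at 13.99, 14.58 and 14.22 against 12.08, 12.16, 11.86 and 13.12, fell by 1.96 (SE 0.30, adjusted p = 0.0117). Myh11, the myosin motor of contractile smooth muscle, fell by 1.65 (SE 0.29, adjusted p = 0.0176), and Myocd, the coactivator that drives contractile genes, by 1.54 (SE 0.26, adjusted p = 0.0168). Acta2 fell by 0.84 (SE 0.13, adjusted p = 0.0136). The list's array mean was 11.80 to 12.02 in the sham arrays and 10.68 to 11.24 in the PPE arrays, with PPE 4 the highest of these. Without sham 2 only 5 of the 26 passed and without sham 3 there were 9, and the median stayed between -0.86 and -0.72 in the leave-one-out fits.

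Some genes of the signals that set smooth muscle tone fell, and most did not pass. Gucy1b1, a subunit of the nitric oxide receptor, read 12.05, 12.25 and 12.07 against 10.59, 10.80, 10.40 and 11.14, a fall of 1.39 (SE 0.17, adjusted p = 0.00616). The natriuretic peptide receptor gene Npr1 fell by 0.94 (SE 0.13, adjusted p = 0.0102) and the phosphodiesterase gene Pde5a by 0.60 (SE 0.10, adjusted p = 0.0155). Of 28 cyclic nucleotide genes 6 fell and of 25 potassium channel genes 7 fell, with medians of -0.09 and -0.08. Of 33 vasoactive receptor and ligand genes 2 fell and 1 rose (median -0.04), and of 30 calcium, sodium and chloride channel genes 5 fell and 1 rose (median -0.12). Over all genes 2.11% fell and 4.43% rose, so the few vasoactive calls are not read as a result about that list. Kcnmb1, the smooth muscle subunit of the large calcium-activated channel, fell by 1.57 (SE 0.20, adjusted p = 0.00712), and both subunits of the vascular ATP-sensitive channel fell, Kcnj8 by 1.11 (SE 0.12, adjusted p = 0.00457) and Abcc9 by 1.05 (SE 0.13, adjusted p = 0.00699). The latter pair also marks pericytes, of whose 15 markers 7 fell, among them Rgs5 by 1.12 (SE 0.12, adjusted p = 0.0048). Leave-one-out fits gave 3 to 7 cyclic nucleotide, 4 to 7 potassium channel, 5 to 7 pericyte, 0 to 4 vasoactive and 0 to 4 calcium, sodium and chloride channel falls, with none in the last 2 lists without sham 2.

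Among matrix genes, those of the basement membrane fell in part, where 2.11% of all genes fell. Of 22 basement membrane genes 10 fell and none rose, with a median of -0.36. Lama2, a laminin chain of muscle, read 11.72, 11.76 and 11.72 against 10.26, 10.41, 9.94 and 10.67, a fall of 1.41 (SE 0.16, adjusted p = 0.0048), Npnt (nephronectin), a ligand of integrin alpha 8, fell by 1.58 (SE 0.23, adjusted p = 0.0112), and Lamb2 by 1.15 (SE 0.13, adjusted p = 0.00553). The integrin chains Itga8, Itga3, Itga9, Itga7 and Itga10 all fell, the last by 0.34, while Itga4, which leukocytes carry, rose by 1.36 (SE 0.14, adjusted p = 0.00423). Of 29 collagen genes 6 fell, led by the neighbours Col4a5 (-1.22) and Col4a6 (-1.04), whereas Col1a1 read 18.80, 18.61 and 18.72 against 18.48, 18.67, 18.67 and 18.63 and overlapped. Leave-one-out fits gave 3 to 10 basement membrane falls and 2 to 5 collagen falls, the fewest basement membrane falls without sham 2.

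Elastic fibre genes fell in part, 5 of 19, with a median of -0.34, where 2.11% of all genes fell and 4.43% rose. Eln, the elastin gene and the substrate protein of the infused enzyme, read 17.75, 17.69 and 17.97 against 16.84, 16.88, 17.30 and 17.27, a fall of 0.73 (SE 0.14, adjusted p = 0.0253). Ltbp1 and Ltbp4, which tether latent TGF-beta to microfibrils, fell by 1.50 (SE 0.22, adjusted p = 0.0107) and 1.26 (SE 0.19, adjusted p = 0.0115). Mfap5 fell by 0.85, and Fbln5 differed by -0.87 with an adjusted p of 0.0524. Among 29 matrix protease genes 3 rose and 4 fell: Mmp9 rose by 1.66 (SE 0.33, adjusted p = 0.0273), and Plat, the tissue plasminogen activator, fell by 1.14 (SE 0.15, adjusted p = 0.00915). Mmp13 read 9.08, 7.75 and 7.97 against 12.49, 9.32, 12.52 and 10.18 and differed by 2.86, with an adjusted p of 0.0942. The elastic list held 1 to 6 falls in the leave-one-out fits.

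Fibroblast, fat and enzyme genes gave a mixed picture, where 2.11% of all genes fell and 4.43% rose. Of 21 resident fibroblast markers 6 fell, among them Clec3b by 1.12 and Dpt by 1.04, and 1 rose, Dpp4, a surface protease that T cells also carry, by 1.22 (SE 0.17, adjusted p = 0.00971). Osr1, a transcription factor of connective tissue, fell by 1.82 (SE 0.38, adjusted p = 0.0304). Of 32 xenobiotic metabolism genes 7 fell and none rose: Fmo2, a flavin monooxygenase, by 1.54 (SE 0.24, adjusted p = 0.0131), and the glutathione transferase Gstm1 by 1.44 (SE 0.25, adjusted p = 0.0166), with Gstm2, Gstm3 and Gstm5 from the same cluster beside it. Dio2, which activates thyroid hormone, read 9.97, 9.57 and 8.67 against 7.29, 6.75, 7.10 and 8.51 and fell by 1.99 (SE 0.45, adjusted p = 0.042), and the thyroid hormone receptor genes Thrb and Thra fell by 0.87 and 0.52. The 20 adipocyte markers had a median of -0.59 and 1 called fall, Slc2a4; their array means were 10.24 to 10.97 in the sham arrays and 9.50, 9.04, 9.65 and 10.59 in PPE 1 to PPE 4. A list of 22 fat-rich neighbourhood and thermogenic genes had a median of -1.13, the lowest of the 64 lists, and 2 called falls, with 11 without PPE 4, 4 without sham 1 and none without any 1 of the other 5 arrays. The part of this fat signal in the enzyme and thyroid values was not tested. Without sham 2, none of the xenobiotic genes passed, and without PPE 4, 11 did. Of the resident fibroblast list, 1 fall passed without any 1 of the 3 sham arrays, 2 without PPE 1 or PPE 3 and 8 without PPE 4.

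Guidance and growth signals changed in single members, where 2.11% of all genes fell and 4.43% rose. In the axon guidance list of 36, 7 fell and 3 rose: Ntrk3, the receptor for neurotrophin 3, read 9.77, 10.18 and 10.17 against 7.86, 8.20, 8.13 and 8.78, a fall of 1.80 (SE 0.21, adjusted p = 0.00589), and Sema4d, a semaphorin of lymphocytes, rose by 1.25 (SE 0.15, adjusted p = 0.00683). Of 36 WNT genes 7 fell, among them Lgr6, a receptor for R-spondins, by 1.15 (SE 0.19, adjusted p = 0.0145), and Rspo3, an R-spondin, rose by 1.23 (SE 0.25, adjusted p = 0.0272). Leave-one-out fits gave 1 to 12 guidance falls and 1 to 8 WNT falls, in both lists the fewest without sham 2 and the most without PPE 4; without sham 1 there were 2 in each, and without sham 3 there were 3 WNT falls. Among oxidant genes, Nox4, the NADPH oxidase of smooth muscle and fibroblasts, fell by 1.15 (SE 0.26, adjusted p = 0.0412), and Cybb, that of phagocytes, rose by 1.23 (SE 0.23, adjusted p = 0.0227). Lists of cholesterol synthesis, steroid response, ribosomal protein, mesothelial, red blood cell and adrenal, ovary and kidney genes had no called member by limma, with medians of -0.07, 0.00, 0.03, -0.08, -0.05 and -0.03.

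Genes of the replication helicase rose slightly, where 4.43% of all genes rose. Mcm3 rose by 0.56 (SE 0.13, adjusted p = 0.0409), Mcm4 by 0.44 (SE 0.08, adjusted p = 0.0187), Mcm5 by 0.36 and Mcm2 by 0.35, and these were the 4 calls among 40 cell cycle genes, whose median was 0.27. Mki67, a marker of dividing cells, read 11.72, 11.20 and 11.82 against 12.16, 12.71, 11.77 and 12.02 and overlapped. The list had 1 call after quantile normalization and none after median centring, and 0 to 2 in the leave-one-out fits.

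By annotation type, of 19067 protein-coding genes 1013 rose (5.31%) and 576 fell (3.02%). Of 3198 lncRNAs 24 rose (0.75%) and 28 fell (0.876%), both below the shares over all genes, 4.43% and 2.11%. The lncRNAs named here are examples. AW112010, a transcript of activated immune cells, rose by 2.19 (SE 0.22, adjusted p = 0.00378), and Carmn, which lies at the Mir143 and Mir145 genes and is a marker of smooth muscle, read 11.75, 11.87 and 11.81 against 10.25, 10.20, 10.09 and 10.65, a fall of 1.51 (SE 0.13, adjusted p = 0.00212). E030013I19Rik fell by 1.89 (SE 0.32, adjusted p = 0.0169) and Snhg18 by 0.94 (SE 0.14, adjusted p = 0.012). Among 610 miRNA genes 6 rose and 8 fell, 0.984% and 1.31%, which is below the 4.43% and 2.11% of all genes, and those named are examples. Mir143, whose product is abundant in smooth muscle, read 9.40, 9.90 and 9.70 against 8.28, 8.48, 8.59 and 8.81 and fell by 1.13 (SE 0.15, adjusted p = 0.00928). Mir142, which is restricted to blood cells, read 7.12, 7.04 and 7.21 against 8.34, 8.15, 8.71 and 8.34 and rose by 1.26 (SE 0.13, adjusted p = 0.0038). Mir146, a gene induced by NF-kappa B, rose by 0.99 (SE 0.20, adjusted p = 0.0309). Mir100 fell by 0.61 together with its host transcript Mir100hg (-0.61), and Mir193b and Mir365-1 fell by 0.46 and 0.81 in a row of 4 neighbouring falls on chromosome 16 (chr16:13449523-13521107).

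Mature products of these genes are shown because their seeds, bases 2 to 8 in capitals, decide which messages they bind. No mature sequence was available for Mir143. Both arms are given for Mir142, and a single arm for each of the others. The sequences are RefSeq's for GRCm38.p6, written 5′ to 3′. No 2 of the 6 share a seed. All were chosen after their values were seen, and the array values do not tell a precursor from its mature products or one arm from the other.
miR-142a-5p: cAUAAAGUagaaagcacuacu
miR-142a-3p: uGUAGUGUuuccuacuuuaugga
miR-146a-5p: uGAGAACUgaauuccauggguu
miR-100-5p: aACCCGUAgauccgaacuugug
miR-193b-3p: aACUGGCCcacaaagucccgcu
miR-365-3p: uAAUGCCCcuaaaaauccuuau

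The longest rows of neighbouring rises lay in a stretch of small nucleolar RNA (snoRNA) genes on chromosome 7. snoRNAs guide chemical changes of other RNAs, and this imprinted stretch between Ube3a and Snrpn is known for tandem copies of Snord115 and Snord116 that are expressed mainly in brain. Between the end of Ube3a and the start of Snrpn, 170 snoRNA genes were measured (chr7:59347337-59978856, GRCm38.p6). Of these, 144 rose and none fell. Many copies share exactly the same values in all arrays, so the probes cannot tell them apart. The 170 genes give 78 distinct rows, of which 59 rose, where 4.43% of all genes rose. All PPE arrays lay above all sham arrays in 68 of the rows, and in 11% of all genes. The stretch was singled out after its values were seen.

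Gm24866, which shares its values with other copies, read 7.57, 7.84 and 8.08 in the sham arrays and 9.13, 9.33, 9.26 and 9.36 in the PPE arrays, a rise of 1.44 (SE 0.12, adjusted p = 0.00204). Gm26032 had the largest rise of the stretch, at 7.75, 8.12 and 8.62 against 9.60, 11.55, 9.96 and 10.13 (2.15, SE 0.45, adjusted p = 0.0311), with PPE 2 highest. Before Ipw, a noncoding gene in the middle of the stretch, the median rise of the 55 distinct rows was 1.15, and from Ipw on that of 23 rows was 1.60. The mean over all 78 distinct rows was 6.34, 6.56 and 6.86 in the sham arrays and 7.48, 8.15, 7.70 and 7.75 in the PPE arrays, so the groups did not overlap. The stretch was dim in the sham arrays, whose medians over all genes were 6.73 to 6.85. Some rows lay far lower, such as Gm22496 at 3.95, 3.82 and 3.84. Snord64, at the far end, differed by -0.02, and the surrounding Ube3a, Snhg14, Ndn and Magel2 differed by 0.22, -0.04, -0.18 and 0.04, none of them called. Elsewhere in the genome 4 of 778 distinct snoRNA rows rose and 1 fell, with a median of 0.01. Leave-one-out fits gave 24 to 58 of the 78 rows, the fewest without sham 2; without sham 1 and without PPE 3 there were 31 and 34.

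**Figure D5:**
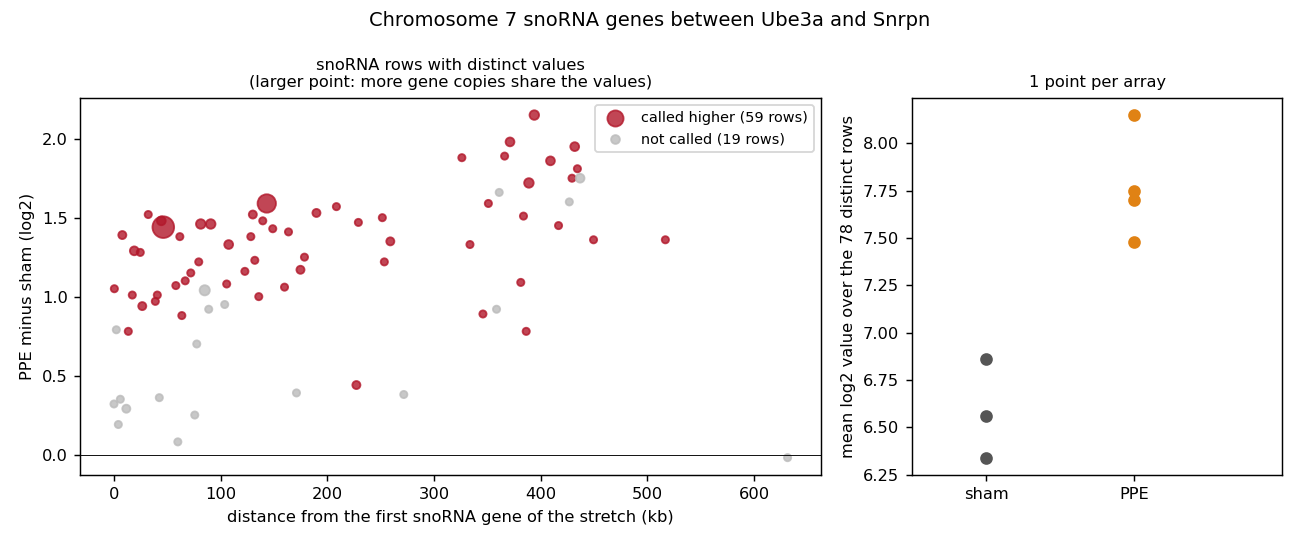
Left, PPE minus sham on the log2 scale for the 78 distinct snoRNA rows against the distance in kb from the first of them, red for the 59 called higher and grey for the 19 not called; point size grows with the number of gene copies that share the values. Right, the mean over the 78 rows in each array, from 6.34 to 6.86 in the 3 sham and from 7.48 to 8.15 in the 4 PPE arrays.

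In the 12 arrays of the other sex the same rows ran the opposite way. Their mean over the 78 rows was 6.65 to 7.73 in 5 sham arrays (median 7.42) and 5.41 to 6.96 in 7 PPE arrays (median 5.85), and the median difference of the rows was -1.23. A fit over all 19 arrays with a term for the difference between the cohorts called 37 of the 78 rows, or 89 of the 170 genes, and 0.549% of all genes. The stretch was picked for rises in the present cohort that are part of this difference. Its count is therefore a description and cannot be set against the share of all genes. Sex and cohort cannot be told apart in this design, and array medians over all probe sets were 6.17 to 6.31 here and 5.61 to 5.85 there, so levels are not compared across them. Receptor genes of the nose, which also have many copies, were looked at in the same way. In the present cohort, of 491 distinct Vmn1r and Vmn2r rows none was called by limma, and their median was 0.05. All PPE arrays lay above all sham arrays in 19 of them, beside 11% of all genes. The fit of the difference between cohorts called 12 of the 491, beside 0.549% of all genes. Of 1225 olfactory receptor genes 4 rose and none fell, with a median of 0.01, and that fit called 2.

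Promoter sequences of the moved genes were searched for known motifs, as a description. RefSeq gives a window of 300 bases, 250 before and 50 after the start site, for 15447 of the measured protein-coding genes, 821 of them called higher and 437 called lower. The letters GAAANNGAA, part of an interferon response element and read on both strands, stood in 14.7% of the windows of genes called higher, in 7.78% of those called lower and in 8.16% of all. The PU.1 letters AGAGGAAGT stood in 4.02%, 0.686% and 1.04%, the CArG box of serum response factor in 1.22%, 3.2% and 1.48%, and the E-box CACGTG in 8.65%, 3.66% and 8.18%. TTCNNNGAA stood in 8.04%, 6.41% and 7.87%, TGANTCA in 7.31%, 6.41% and 7.15%, an NF-kappa B site in 6.58%, 5.49% and 4.67%, and CATTCC in 10.5%, 16.2% and 13.3%. The D-box TTATGTAA and the ROR element stood in 0.731%, 0.915% and 0.867% and in 0%, 0.458% and 0.252%. A match is not evidence of binding, and no factor's binding was measured.

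For each of 3 motifs the promoter of the gene with the largest change that holds it is shown, the 250 bases before the start site on the gene's strand, 5′ to 3′, with the motif in capitals. Cxcl9 (chr5:92328080-92328329, minus strand) holds the interferon letters 175 bases before its start. Fcgr4 (chr1:171018676-171018925, plus strand) holds the PU.1 letters on the opposite strand 24 bases before its start. Lmcd1 (chr6:112273508-112273757, plus strand), of the contractile list, holds a CArG box 215 bases before its start.
Cxcl9: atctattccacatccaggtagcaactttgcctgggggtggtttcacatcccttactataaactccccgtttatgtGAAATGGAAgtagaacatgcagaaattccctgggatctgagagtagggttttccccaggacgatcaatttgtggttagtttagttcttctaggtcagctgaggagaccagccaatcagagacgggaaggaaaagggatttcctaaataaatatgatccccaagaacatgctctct
Fcgr4: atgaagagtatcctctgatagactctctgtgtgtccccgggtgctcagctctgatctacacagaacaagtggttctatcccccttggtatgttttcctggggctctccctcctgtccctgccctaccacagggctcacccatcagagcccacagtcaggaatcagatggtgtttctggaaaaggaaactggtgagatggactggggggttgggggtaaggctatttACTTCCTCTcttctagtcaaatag
Lmcd1: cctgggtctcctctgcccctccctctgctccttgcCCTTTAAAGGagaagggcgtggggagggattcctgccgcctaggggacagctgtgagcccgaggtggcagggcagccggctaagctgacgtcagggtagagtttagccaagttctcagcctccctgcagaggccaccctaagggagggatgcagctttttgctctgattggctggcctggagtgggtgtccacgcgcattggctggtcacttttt

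Single arrays carried transcripts of tissue that is not vessel wall. Skeletal muscle genes were high in sham 1 and PPE 2 and at a low, even level elsewhere: Myh1, a fast myosin heavy chain, read 13.53, 5.55 and 5.61 in the sham arrays and 5.48, 12.31, 5.54 and 5.50 in the PPE arrays. The mean over 18 such markers was 9.96 in sham 1 and 8.87 in PPE 2, against 5.82 to 6.06 in the other 5 arrays, and none of the 18 passed limma's threshold. Because the signal fell in both groups, a fit without sham 1 and PPE 2 was added after the data were seen; it has 5 arrays and called 271 rises and 70 falls. The median of the interferon-stimulated list was 1.94 in it and that of the contractile list -0.80, with 2 calls in each. No named gene that was called with all arrays changed direction.

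Other arrays stood apart in other ways. Glycam1, a lymph node endothelial adhesion protein, was at 13.22 in PPE 3 and between 6.51 and 8.25 in the rest. Dbh, which makes noradrenaline in sympathetic neurons, was at 10.62 in PPE 2 and between 5.61 and 7.41 elsewhere, and Th and Slc6a2 were also highest there. Ucp1, the uncoupling protein of brown fat, was at 12.48 in sham 3 and 10.90 in PPE 4 but 5.93 in PPE 3. PPE 1 was highest in some classes of small RNA. The mean over 37 distinct 5S ribosomal RNA rows was 12.44 there and 10.29 to 10.85 in the others. In PPE 1, 80 of 841 distinct snRNA rows stood more than 1 log2 unit above every other array. The mean over miRNA rows was not raised, at 6.85 there and 6.82 to 6.97 in the others. Across all genes 244 stood that far above the rest in PPE 1 and 124 in PPE 2, against 3 to 21 in the other 5 arrays. The source of these single-array levels was not tested, nor was their part in the results beyond the fits that leave out an array.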

How the data were processed

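RNA from the 7 aortae was hybridised to Clariom D (MTA-1_0) arrays after labelling with the WT PLUS kit, per the labels' protocols. Values were used as deposited by the authors, on the log2 scale, 1 column per array; Transcriptome Analysis Console and mm10 are named in the submitters' processing notes, and the normalization method is not given in the sources used here. Of 65956 probe sets, 30604 had 1 symbol, 2146 several and 33206 were not listed with one; the probe set with the highest mean was kept for each of 30062 genes. PPE was compared with sham in limma 3.58.1 (R 4.3.3; lmFit and eBayes, 5 residual and 2.65 prior degrees of freedom), with Benjamini-Hochberg adjustment over all genes and a threshold of 0.05. Fold values are 2 to the power of the log2 difference. With 1 mouse per array, p-values measure the spread between these mice, and the number of arrays limits the precision; array data have no read depth.

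The fit was tested on simulated data for this comparison (30062 genes). It recovered 22.9% of 83 genes changed by 0.5, 90% of 60 changed by 1 and 96.5% of 57 changed by 2 log2 units. It called 7 unchanged genes. The simulated noise was independent between genes, without the array-wide differences seen in the real arrays. These shares therefore do not give the error rate of the calls reported here. The members and lists were chosen with earlier results of these data known. Named genes were the 20 largest called rises and falls, the 15 largest on no list, the 3 largest called members of each list in each direction (the 2 lowest p-values where none was called), the 5 largest lncRNAs in each direction, and the 5 genes with the largest SD in each group; predicted, small RNA and antigen receptor segment genes were skipped except among lncRNAs. List members that a result turns on may also be named. Genes named outside this rule, the miRNA genes, families, rows of neighbours, the snoRNA stretch and single genes such as Gm26032 and Rora among them, were chosen after their values were seen. So were the fit of the difference between cohorts over 19 arrays, the fits on distinct rows and on protein-coding genes, and the fit without sham 1 and PPE 2. Gene positions, promoters and mature miRNAs are RefSeq's for GRCm38.p6. Alternatives tried were centring on array medians, quantile normalization, leaving out dim genes, the mean of probe sets, a trended robust prior, array weights, all 19 arrays, the replicate number as a block, and leaving out each array.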

Additional observations from a re-analysis of the deposited data

Results flagged for a closer look

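In single genes 1 PPE array stood far from the other 3, by the gap to its nearest neighbour as a share of the range of the 4 arrays. Chance alone marks about 1 in 20 independent groups in this way, and 19 of the 224 named genes were marked. Some named genes, with Myh1, Myh4, Tnnt3, Atp2a1 and Myl1 among them, were picked for a large spread within a group. All genes also share the same arrays, so this count cannot be set against chance. PPE 4 lay high in Itga8 (0.944), Ntn1 (0.905), E030013I19Rik (0.871), Efhd1 (0.835) and Myl9 (0.831), all genes that fell, and low in Cacna1d (0.957), Sema4d (0.948), Ccl5 (0.833) and Col14a1 (0.833). PPE 2 lay high in the skeletal muscle genes Myh1 (0.991), Myh4 (0.990), Tnnt3 (0.974), Atp2a1 (0.958) and Myl1 (0.900) and in Pltp (0.859), and low in Saa3 (0.930) and Siglech (0.851). PPE 1 lay low in Chgb (0.935) and high in Klrk1 (0.883).

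The response to elastase differed between this cohort and the 12 arrays of the other sex in H2-Eb1, a class II gene, by -1.62 on the log2 scale (adjusted p = 0.0423 in limma over all 30062 genes): the rise was 1.14 here and 2.75 there. In the snoRNA stretch of chromosome 7 the response differed in 37 of 78 distinct rows. That stretch was singled out for its rises in this cohort, which are part of the difference. Sex and cohort cannot be told apart, and the cause was not tested.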

How the results depend on the processing

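Of 224 named genes 198 were called. Among these 198 no difference changed sign under any alternative, and 26 passed in every alternative. Signs were not followed for the uncalled named genes. The median of the skeletal muscle list, which had no call, went from -0.81 to 0.50 without sham 1. The counts of 1333 rises and 635 falls became 1203 and 1155 after quantile normalization, 1059 and 824 after median centring, and 839 and 438 with the spread taken from all 19 arrays. Without sham 1 and PPE 2 there were 271 rises and 70 falls, and 157 of the 198 called named genes no longer passed; fewer arrays entered that fit. Leaving out 1 array gave 359 to 1254 rises and 141 to 732 falls, with 130 named calls lost without sham 2 and 14 without PPE 4. The replicate numbers did not pair the arrays (correlations of deviations 0.01, -0.22 and 0.24), and with the replicate block there were 815 rises and 428 falls. Calls of about 0.5 log2 units are limited by the number of arrays.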
